A study of Mus musculus with 6 samples.

Results

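In *Myh9*-deficient LSKs, the Lin-Sca1+c-Kit+ stem and progenitor cells of bone marrow, the genes of granzyme A and B, of the chemokine CCL5, of CD2 and of several T cell receptor and CD3 chains were higher than in control LSKs, while *Nkg7*, a gene of the same cytotoxic granules, was lower. These belong to 10 granzyme and T or NK cell genes, *Gzma*, *Gzmb*, *Prf1*, *Nkg7*, *Ccl5*, *Cd2*, *Cd3d*, *Cd3g*, *Trac* and *Trbc2*, which were taken by name from the 54532 genes of the deposited expression table, each name matching 1 row. In 6 of them, the 3 control libraries together held between 1 and 24 reads. The libraries came from C57BL/6 mice genotyped at 4 to 5 weeks of age. One group carried floxed *Myh9* alleles (*Myh9* fl/fl) and the *Mx1-cre* transgene, and the control group consisted of littermates with no cre. The *Mx1* promoter that drives cre is induced by interferon and is also active outside the blood system. Both groups received poly I:C, a double-stranded RNA mimic that induces interferon, at 5 mg/kg every other day, so the control libraries carry the same stimulus. The sample labels give 2 doses and the methods section gives 3. From each group, 3 libraries were made from 100000 LSKs each, sorted 4 days after the first dose, and the number of mice behind each library is not stated.

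Granzymes are serine proteases stored in the granules of cytotoxic T and NK cells, and perforin forms the pores through which they enter a target cell. The T cell receptor is made of alpha and beta or gamma and delta chains that signal through the CD3 chains, and its genes are completed by joining of V, D and J segments during T cell development. LSKs are sorted without mature lineage cells, with CD3, CD4 and CD8 antibodies among those used to remove them.

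Expression is given as FPKM, the reads on a gene divided by its length and by the size of the library. Coordinates are gene bounds in mm10, as the deposited table and GENCODE M21 both give them, and all 10 are protein-coding genes except *Trac* and *Trbc2*, which are annotated as T cell receptor constant segments. Multiplying FPKM by gene length gave whole steps for 100% of values (tolerance 0.02 of a read), so the read number behind each value is known. The libraries held 17571544 to 19894562 reads on genes, and 3 reads on a gene of 1 kb corresponded to 0.151 to 0.170 FPKM. *Myh9* itself was at 23.0, 22.6 and 22.0 FPKM in the control libraries and at 18.4, 19.96 and 17.7 FPKM in the libraries labelled *Myh9*-deficient. The groups did not overlap (log2 fold change -0.26, SE 0.049, limma adjusted p = 0.00642), but FPKM is counted over the whole gene, so reads from the targeted exon cannot be told apart from the rest. The genes that define the sorted cells were present, with *Kit* at 23.9 ± 0.454 FPKM in control LSKs and 21.5 ± 0.334 FPKM in *Myh9*-deficient LSKs and *Ly6a*, the gene of Sca1, at 95.4 ± 1.87 and 89.5 ± 3.63 FPKM (mean ± SD, n = 3).

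Promoters of 6 of the 10 genes (*Gzma*, *Gzmb*, *Prf1*, *Nkg7*, *Cd3d* and *Cd3g*) were found in RefSeq (GRCm38.p6). The windows of both granzymes and of the neighbouring pair *Cd3d* and *Cd3g* are printed because these genes moved together. Each shows the 250 bases before the RefSeq start, 5′ to 3′ on the strand of the gene, and capitals mark the motif matches that a search of both strands found.
*Gzma*, chr13:113100982-113101231, minus strand: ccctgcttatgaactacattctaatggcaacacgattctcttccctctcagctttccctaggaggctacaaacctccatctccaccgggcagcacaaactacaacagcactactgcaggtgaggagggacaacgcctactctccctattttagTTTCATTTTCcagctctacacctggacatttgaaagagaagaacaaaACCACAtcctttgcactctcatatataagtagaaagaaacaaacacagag
*Gzmb*, chr14:56262335-56262584, minus strand: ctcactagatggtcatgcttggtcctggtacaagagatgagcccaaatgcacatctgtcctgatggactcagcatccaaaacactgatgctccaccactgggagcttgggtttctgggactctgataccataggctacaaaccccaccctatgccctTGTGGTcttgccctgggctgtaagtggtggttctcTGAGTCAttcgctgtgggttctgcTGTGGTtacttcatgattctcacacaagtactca
*Cd3d*, chr9:44981536-44981785, plus strand: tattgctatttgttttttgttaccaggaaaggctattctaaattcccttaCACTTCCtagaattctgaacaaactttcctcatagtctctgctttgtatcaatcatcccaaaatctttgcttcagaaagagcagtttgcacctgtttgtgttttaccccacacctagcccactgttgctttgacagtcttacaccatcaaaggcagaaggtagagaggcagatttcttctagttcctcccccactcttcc
*Cd3g*, chr9:44980432-44980681, minus strand: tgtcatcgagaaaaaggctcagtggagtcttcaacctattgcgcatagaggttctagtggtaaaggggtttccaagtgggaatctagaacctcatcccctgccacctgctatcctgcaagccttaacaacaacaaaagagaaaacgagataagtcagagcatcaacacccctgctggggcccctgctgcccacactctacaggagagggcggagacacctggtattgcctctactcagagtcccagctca
Motifs searched were TGTGGT (bound by RUNX factors), TGANTCA (AP-1), TGACGTCA (CRE), GGTGTGA (T-box), an interferon response motif (GAAA, any 2 bases, GAAA) and CACTTCC (ETS). Distances are counted from the RefSeq start, which lies 74 bases upstream of the GENCODE bounds of *Gzmb*, 65 bases inside those of *Nkg7* and 3 bases inside those of *Prf1*, and at the bound itself for the other 3 genes. The RUNX letters were found 93 and 34 bases before the start of *Gzmb*, and in the reverse direction 50 bases before *Gzma*, 130 before *Prf1* and 83 before *Nkg7*, where 14% of 32851 promoters of the same length hold them. *Gzmb* also held the AP-1 letters at 58 bases (6.75% of promoters) and *Gzma* the interferon response letters in reverse at 97 bases (2.98%). A T-box match lay 13 bases before the RefSeq start of *Nkg7*, which is 52 bases inside the GENCODE bounds (3.33%), and an ETS match 200 bases before *Cd3d* (8.55%), while the *Cd3g* window held none of the 6, and no promoter of the 6 genes held the CRE letters (1.55%). No 2 matches overlapped, and a match of letters describes the sequence alone.

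*Gzmb* (ENSMUSG00000015437, chr14:56258838-56262260, minus strand), the gene of granzyme B, was the more abundant granzyme. It was at 4.62, 5.18 and 5.33 FPKM in control LSKs and at 15.9, 16.0 and 15.9 FPKM in *Myh9*-deficient LSKs. Every *Myh9*-deficient library lay above every control library, and the spread within either group was small beside the difference. *Gzmb* rose by 1.49 on the log2(FPKM + 1) scale (SE 0.052, limma adjusted p = 7.3e-06, 3 against 3 libraries), a scale on which changes of low genes are understated. The reads behind these values were 410 in control and 1272 in *Myh9*-deficient libraries, a ratio per library size of 3.21 (95% exact interval 2.87 to 3.60, counting error only).

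*Gzma* (ENSMUSG00000023132, chr13:113093825-113100981, minus strand), the gene of granzyme A, was at 0.300, 0.508 and 0.466 FPKM in control LSKs and at 1.38, 1.85 and 1.44 FPKM in *Myh9*-deficient LSKs. All 3 *Myh9*-deficient libraries were above the control libraries, from 6, 9 and 9 reads to 26, 34 and 27 reads. The read ratio was 3.75 (95% exact interval 2.36 to 6.16), close to that of *Gzmb*, with a mean over the 6 libraries of 0.992 FPKM, just under the 1 FPKM needed to be tested. Within each library, *Gzmb* stood 8.63 to 15.4 times above *Gzma* in FPKM, and the ranges of this ratio in both groups overlapped.

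*Prf1* (ENSMUSG00000037202, chr10:61297833-61304680, plus strand), the gene of perforin, held between 2 and 25 reads a library. It was at 0.0584, 0.132 and 0.0403 FPKM in control LSKs and at 0.517, 0.106 and 0.208 FPKM in *Myh9*-deficient LSKs, from 3, 6 and 2 against 25, 5 and 10 reads. The groups overlapped, since *Myh9*-deficient replicate 2 lay below control replicate 2, and 25 of the 40 *Myh9*-deficient reads came from replicate 1 (exact permutation p = 0.2, two-sided). The read ratio of 3.76 (95% exact interval 1.89 to 8.13) was 2.13 without *Myh9*-deficient replicate 1 and 5.72 without control replicate 2.

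*Nkg7* (ENSMUSG00000004612, chr7:43437073-43438249, plus strand), a membrane protein of cytotoxic granules, went the other way. It was the most abundant of the 10 genes, at 349.8, 359 and 351 FPKM in control LSKs and at 282, 281 and 276 FPKM in *Myh9*-deficient LSKs. The groups did not overlap, and *Nkg7* fell by 0.34 on the log2 scale (SE 0.022, limma adjusted p = 8.8e-05), a read ratio of 0.802 (95% exact interval 0.785 to 0.820). Its level relative to *Gzmb* went from 75.7, 69.3 and 65.9 times in control libraries to 17.8, 17.6 and 17.3 times in *Myh9*-deficient libraries.

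*Ccl5* (ENSMUSG00000035042, chr11:83525778-83530518, minus strand), a chemokine that memory T cells and NK cells store and release, was at 10.1, 11.7 and 8.47 FPKM in control LSKs and at 34.4, 35.5 and 36.7 FPKM in *Myh9*-deficient LSKs. No library of one group reached the other. *Ccl5* rose by 1.73 on the log2 scale (SE 0.10, limma adjusted p = 5.5e-05), and the read ratio was 3.59 (95% exact interval 3.26 to 3.96). *Ccr1*, the gene of a receptor for this chemokine, rose from 0.854 ± 0.166 to 1.60 ± 0.421 FPKM (log2 0.48, limma adjusted p = 0.035). Its control mean lay below 1 FPKM, so it was tested only through its level in the *Myh9*-deficient libraries. *Ccr3*, the gene of another receptor, stayed under 1 FPKM in both groups and was not tested by limma on FPKM.

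**Figure D1:**
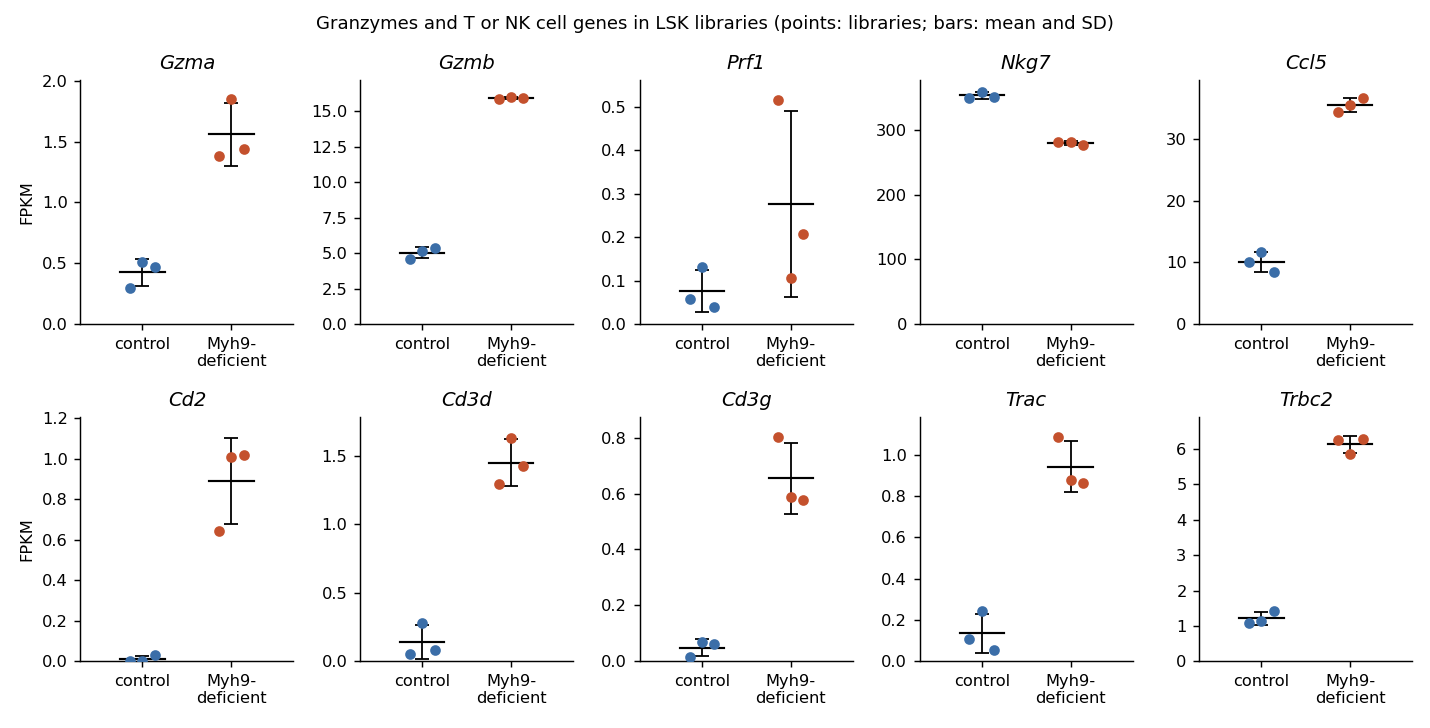
FPKM of the 10 genes in each library, with 1 panel a gene and its own linear axis from 0. Points are libraries (3 control, 3 *Myh9*-deficient), long bars the mean and whiskers the SD. The groups are apart in every panel except *Prf1*, and *Nkg7* alone is lower in *Myh9*-deficient LSKs, at 276 to 282 against 349.8 to 359 FPKM.

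*Cd2* (ENSMUSG00000027863, chr3:101275899-101287939, minus strand), an adhesion receptor of T and NK cells, had the highest ratio. Control libraries held 0, 0 and 1 read and *Myh9*-deficient libraries 21, 32 and 33 reads, that is 0, 0 and 0.0299 against 0.644, 1.01 and 1.02 FPKM. The ratio of 88.9 rests on a single control read, and its 95% exact interval ran from 15.5 to 3553. Without control replicate 1 the ratio was 57.8, and without control replicate 3 no control read was left.

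The CD3 chains carry the signal of the T cell receptor into the cell. *Cd3d* (ENSMUSG00000032094, chr9:44981786-44987339, plus strand) was at 0.0554, 0.281 and 0.0861 FPKM in control LSKs and at 1.29, 1.63 and 1.42 FPKM in *Myh9*-deficient LSKs, from 2, 9 and 3 against 44, 54 and 48 reads. *Cd3g* (ENSMUSG00000002033, chr9:44969572-44980431, minus strand), which is read from the opposite strand with its start 1355 bases away, was at 0.0154, 0.0694 and 0.0638 FPKM in control LSKs and at 0.800, 0.587 and 0.575 FPKM in *Myh9*-deficient LSKs, from 1, 4 and 4 against 49, 35 and 35 reads. For both genes all *Myh9*-deficient libraries lay above all control libraries. The read ratios were 10.8 for *Cd3d* (95% exact interval 6.23 to 20.2) and 13.7 for *Cd3g* (6.97 to 30.6). Control replicate 2 held 9 of the 14 control reads of *Cd3d*, and without it the ratio was 20.9.

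The constant regions of the receptor chains were higher as well. *Trac* (ENSMUSG00000076928, chr14:54220521-54224206, plus strand), the constant region of the alpha chain, was at 0.108, 0.243 and 0.0557 FPKM in control LSKs and at 1.08, 0.880 and 0.862 FPKM in *Myh9*-deficient LSKs. The groups did not overlap, with 2, 4 and 1 against 19, 15 and 15 reads and a ratio of 7.24 (95% exact interval 3.26 to 18.9), or 11.7 without control replicate 2. *Trbc2* (ENSMUSG00000076498, chr6:41546730-41548352, plus strand), the second of the pair of beta chain constant regions, was at 1.09, 1.15 and 1.43 FPKM in control LSKs and at 6.25, 5.86 and 6.29 FPKM in *Myh9*-deficient LSKs. It rose by 1.69 on the log2 scale (SE 0.074, limma adjusted p = 1.7e-05), with 48 against 236 reads and a ratio of 5.08 (95% exact interval 3.72 to 7.09).

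*Trbc1*, the other beta constant region, did not follow *Trbc2*. It was at 3.53 ± 0.575 FPKM in control LSKs and 3.68 ± 0.490 FPKM in *Myh9*-deficient LSKs (mean ± SD, n = 3; log2 0.05, SE 0.12, limma adjusted p = 0.772). The ratio of *Trbc2* to *Trbc1* in FPKM was 0.275, 0.399 and 0.381 in control libraries and 1.99, 1.54 and 1.54 in *Myh9*-deficient libraries, so the order of both genes was inverted between the groups. These genes are near-identical copies: 44.0% of the 50-base windows of *Trbc2* transcripts also occur in *Trbc1*, and how reads in these windows were assigned is not given in the sources used here. The J segments that lie next to each constant region are separate genes of the table, and their reads are given with no test. The *Trbj1* segments, next to *Trbc1*, held 27, 11 and 12 reads in control libraries and 16, 14 and 16 in *Myh9*-deficient libraries, and the *Trbj2* segments, next to *Trbc2*, held 0, 1 and 1 against 8, 3 and 11 reads. The comparison with *Trbc1* and with the J segments was chosen after their values were seen.

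**Figure D2:**
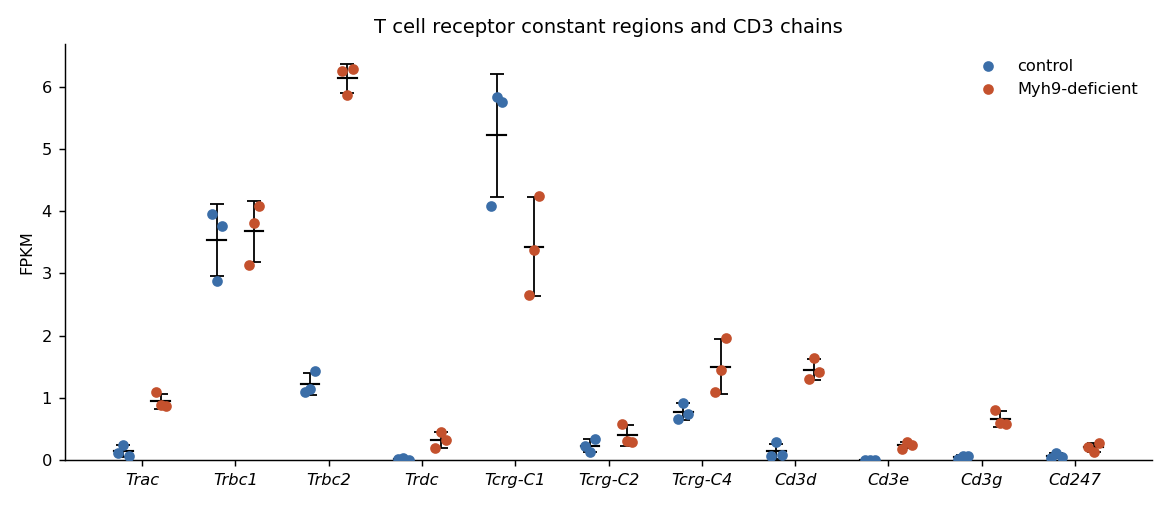
FPKM of the T cell receptor constant regions and CD3 chains in each library, on a linear axis from 0. Points are libraries, long bars means and whiskers SDs of 3 libraries a group. *Trbc2* separates the groups, at 1.09 to 1.43 against 5.86 to 6.29 FPKM, while the points of *Trbc1* overlap.

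Only 4 of the 10 genes had a mean of at least 1 FPKM and entered the limma test over 11552 genes, 3 of which were called higher (*Gzmb*, *Ccl5* and *Trbc2*) and 1 lower (*Nkg7*). Calls were made for 19.9% of all genes tested in the higher and 20.6% in the lower direction, and the median over these genes was -0.01 (log2). The other 6 genes were left out by that filter. With no filter on low values, the same test called 8 of the 10 higher and 1 lower, against 9.02% and 8.1% of 24337 genes. All 10 genes had at least 10 reads over the 6 libraries. *Cd2*, *Trac* and *Cd3g*, with 1, 7 and 9 control reads, reached this only through their *Myh9*-deficient reads, so this filter favoured higher calls for them. When limma voom, which models read numbers, was run on the recovered reads of all genes with at least 10 reads, 8 of the 10 genes were again higher and 1 lower, against 17.8% and 14.8% of 18035 genes. The gene not called in either was *Prf1* (voom log2 1.65, SE 0.74, adjusted p = 0.0957, and 0.279 with no filter). This voom fit was chosen after the data were seen, and the genes themselves were chosen with earlier results of these data known.

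On the voom scale, the log2 fold changes of the genes below the filter were 1.86 for *Gzma* (adjusted p = 0.0024), 2.78 for *Trac* (adjusted p = 0.0034), 3.57 for *Cd3d* (adjusted p = 3.4e-05) and 3.74 for *Cd3g* (adjusted p = 8.2e-05). *Cd3d* and *Trbc2* (log2 2.32) were called and over 4-fold higher, as 1.72% of genes tested were. *Trac*, *Cd3g* and *Cd2* are left out of this comparison, since they reached 10 reads only through their *Myh9*-deficient reads. The share of all genes includes such genes. The granzymes and *Ccl5* had read ratios between 3 and 4. In 9 of the 10 genes the FPKM ranges of the groups did not overlap, 8 higher and 1 lower, where 22% and 21.4% of genes with at least 10 reads were free of overlap in each direction. With 3 libraries a group, the exact permutation test of a single gene cannot go below p = 0.1, which it gave for each of these 9 genes. Since these are bulk libraries, more cells of a type and more RNA per cell cannot be told apart for any of the values given here.

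**Figure D3:**
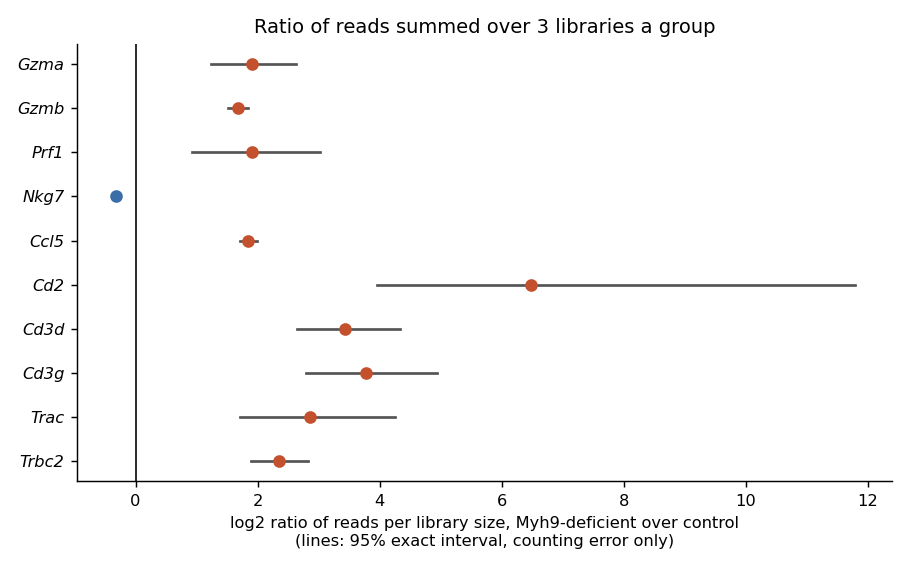
Ratio of reads per library size, *Myh9*-deficient over control, summed over 3 libraries a group, on a log2 axis. Points are ratios, lines their 95% exact intervals for counting error, and the vertical line marks equal levels. *Nkg7* alone lies left of the line, at a ratio of 0.802, and the interval of *Cd2*, with 1 control read, is the widest.

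By level, the order in control LSKs was *Nkg7* (353 ± 4.87 FPKM), *Ccl5* (10.1 ± 1.62), *Gzmb* (5.04 ± 0.374), *Trbc2* (1.22 ± 0.182) and *Gzma* (0.425 ± 0.110), followed by *Cd3d*, *Trac*, *Prf1*, *Cd3g* and *Cd2* below 0.15 FPKM (mean ± SD, n = 3). Of these last 5, the neighbours *Cd3d* (0.141 ± 0.123), *Trac* (0.135 ± 0.0966), *Prf1* (0.0768 ± 0.0484) and *Cd3g* (0.0495 ± 0.0297) did not differ beyond their spread. In *Myh9*-deficient LSKs the first 4 kept their places, at 279.6 ± 2.97, 35.5 ± 1.17, 15.9 ± 0.0631 and 6.13 ± 0.235 FPKM. *Gzma* (1.56 ± 0.257) and *Cd3d* (1.45 ± 0.170) came next and lay within their spread, as did *Trac* (0.942 ± 0.124) and *Cd2* (0.890 ± 0.213), and *Cd3g* (0.654 ± 0.127) and *Prf1* (0.277 ± 0.214) were last.

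The genes around these 10 were followed in lists chosen with earlier results of these data known, and counts refer to the voom fit unless limma on FPKM is named. Of the 8 other mouse granzymes, *Gzmm* was the only one with at least 10 reads, at 0.651 ± 0.177 FPKM in control LSKs and 0.881 ± 0.195 FPKM in *Myh9*-deficient LSKs (adjusted p = 0.38). No read fell on *Gzmd*, *Gzmf*, *Gzmg* or *Gzmn* in any library, and *Gzmk*, a granzyme of T cells, held 0 reads in control libraries and 6 in *Myh9*-deficient libraries. Of 17 genes for granule loading, secretion and granzyme control, 16 were tested, 3 were higher and 6 lower, where 17.8% of all genes were called higher and 14.8% lower. The number of higher calls was thus near that of all genes. *Ctsw*, a protease of cytotoxic cells, rose from 2.71 ± 0.655 to 6.24 ± 1.12 FPKM (log2 0.97, limma adjusted p = 0.00326). *Rab27a*, which docks granules at the membrane, fell by 0.53 and the granule membrane gene *Lamp1* by 0.51 on the log2 scale (limma adjusted p = 6.7e-05 and 4.8e-05). *Srgn*, the proteoglycan that packs granzymes and the most abundant of the list, was at 483 ± 3.58 against 468 ± 3.75 FPKM (limma adjusted p = 0.119). The list's median log2 fold change was -0.03 in the voom fit, where that of all genes was 0.03. In the same fit it was 0.83 for the T cell receptor and coreceptor genes below, 0.52 for T cell receptor signalling, 0.15 for CD2 partners and SLAM family receptors, 1.52 for NK cell receptors, 0.19 for transcription factors of T and NK cell fate and 0.30 for effector cytokines, over genes with at least 10 reads. Of the genes tested, 3 of the NK cell receptor genes and 1 of the T cell receptor and coreceptor genes had no control read. Setting them at their fold over a floor of 3 control reads could not move the voom medians, since each such fold lay above its list's median. The voom medians also hold genes that reached 10 reads only through the *Myh9*-deficient libraries, such as *Klrc1* (7 control reads), *Klre1* (6) and *Trdc* (3). By limma on FPKM, fewer genes of these lists were tested and the medians were lower. They were 0.05 for T cell receptor and coreceptor genes (5 tested) and 0.004 for T cell receptor signalling (9). For CD2 partners and SLAM family receptors the median was -0.004 (8), and for NK cell receptors -0.15 (6). For transcription factors it was -0.16 (9) and for effector cytokines -0.10 (6), where that of all genes was -0.01.

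Of 14 further T cell receptor and coreceptor genes, 5 were higher and 1 lower, where 17.8% and 14.8% of all genes were. The other genes were not called (6) or had under 10 reads (2). Of the 5, *Cd3e* and *Trdc*, with 0 and 3 control reads, reached 10 reads only through the *Myh9*-deficient libraries. *Cd3e*, the target of the CD3 antibody in lineage panels, held no read in control and 14, 21 and 18 reads in *Myh9*-deficient libraries. With the control group as a whole set at a floor of 3 reads, this is 18.3-fold higher. The 95% exact interval of the ratio began lower, at 14.3. *Trdc*, the constant region of the delta chain, held 1, 2 and 0 against 14, 32 and 23 reads, and *Cd247*, the zeta chain, 4, 11 and 5 against 21, 12 and 27 reads. *Cd4* held 22, 22 and 27 against 65, 67 and 53 reads, and the CD8 alpha chain gene *Cd8a* held 2 reads in 1 control library and none in any *Myh9*-deficient library. The single call in the lower direction was *Tcrg-C1*, a gamma chain constant region, at 5.22 ± 0.989 against 3.43 ± 0.795 FPKM (voom adjusted p = 0.0465, limma adjusted p = 0.0510), with overlapping groups. By limma on FPKM the single call was *Tcrg-C4*, another gamma chain constant region, from 0.775 ± 0.132 to 1.50 ± 0.442 FPKM (log2 0.48, limma adjusted p = 0.0335). This call was lost in 8 of 16 alternatives. The control mean of *Tcrg-C4* lay below 1 FPKM, so it passed the filter only through the *Myh9*-deficient libraries. *Cd3e*, *Trdc*, *Cd247*, *Cd4* and *Tcrg-C1* were named after their values were seen. Most of this list's FPKM came from *Cd27* (56.2 ± 2.08 against 55.9 ± 1.91 FPKM), which LSKs also express, and the list summed to 66.4 to 68.9 FPKM in control LSKs and 66.8 to 73.2 FPKM in *Myh9*-deficient libraries.

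Of 16 genes that signal below the T cell receptor, 7 were higher and 2 lower by voom, and among the 9 tested by limma on FPKM 2 were higher and 3 lower, against 19.9% and 20.6% of all genes in that test. *Lat*, the adaptor on which the signal assembles, rose from 9.24 ± 0.391 to 14.4 ± 0.957 FPKM (log2 0.58, limma adjusted p = 4.3e-04), and *Lck*, the kinase that starts it, from 3.44 ± 0.0636 to 5.12 ± 1.19 FPKM (log2 0.44, limma adjusted p = 0.0335). *Nfatc1* and *Ptprc*, the gene of CD45, fell by 0.18 and 0.15 on the log2 scale (limma adjusted p = 0.0351 and 0.0329). Of the alternatives, 5 of 16 lost the call of *Lck*, 8 of 16 that of *Nfatc1* and 10 of 17 that of *Ptprc*. Among CD2 partners and SLAM family receptors, 4 of 14 were higher and 1 was lower, where voom called 17.8% and 14.8% of all genes. Of the 4, *Cd226* and *Sh2d1a* held 7 and 1 control reads and reached 10 reads only through the *Myh9*-deficient libraries. *Cd48*, the ligand of CD2 in the mouse, was at 131 ± 1.40 against 135 ± 10.3 FPKM (limma adjusted p = 0.526).

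**Figure D4:**
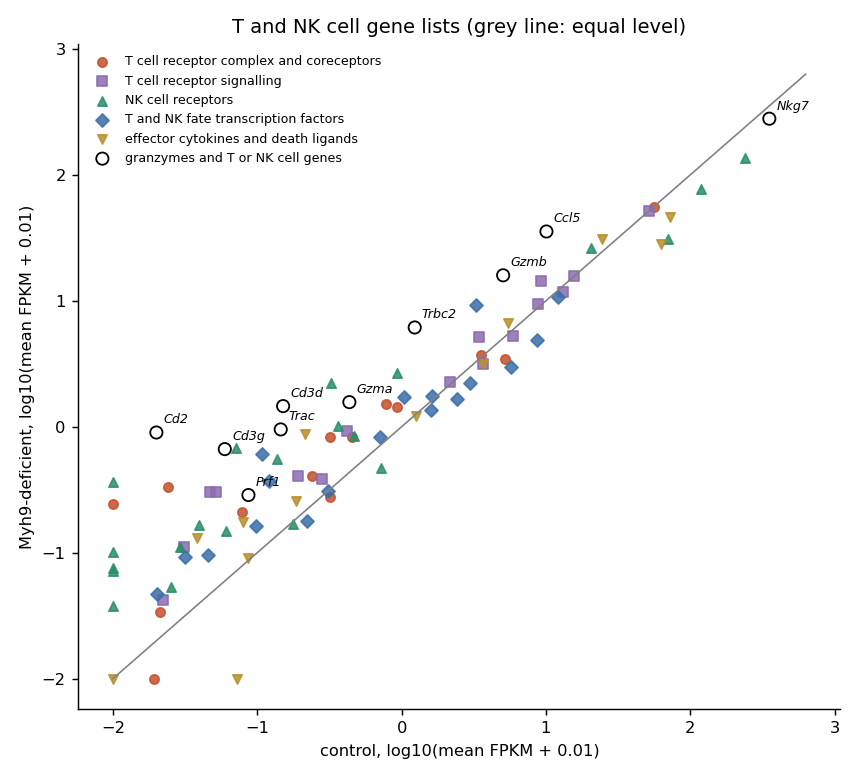
Mean FPKM of the 10 genes (open circles, named) and of 5 lists of related T and NK cell genes in control (horizontal) and *Myh9*-deficient LSKs (vertical), both as log10(mean FPKM + 0.01), with a grey line of equal level. Genes far above the line are mostly those below 1 FPKM in control, such as *Cd2*, *Cd3d* and *Cd3g*, while *Nkg7* lies under it.

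NK cell receptor genes were split. Of 21, 10 were higher and 4 lower, where 17.8% and 14.8% of all genes were, and 3 had under 10 reads. By limma on FPKM, 6 were tested, and 3 were higher and 3 lower, against 19.9% and 20.6% of all genes in that test. Of the 10 called higher by voom, *Klrc2*, *Klri2* and *Klra7* held no control read and were tested through 21, 20 and 25 *Myh9*-deficient reads alone. *Klrc1* and *Klre1*, also among the 10, held 7 and 6 control reads and reached 10 reads only through the *Myh9*-deficient libraries. *Il2rb*, the receptor chain for interleukins 2 and 15, rose from 0.312 ± 0.0987 to 2.23 ± 0.183 FPKM (log2 1.30, limma adjusted p = 1.3e-04). *Klrd1*, the gene of CD94, rose from 0.919 ± 0.294 to 2.68 ± 0.552 FPKM (log2 0.94, limma adjusted p = 0.00371). Both passed the filter of 1 FPKM only through the *Myh9*-deficient libraries, since their control means lay below it. Over *Ncr1* and the 14 genes of the killer cell lectin-like receptor family, reads summed to 151, 173 and 163 in control libraries against 289, 297 and 292 in *Myh9*-deficient libraries. *Klrk1*, the gene of NKG2D, held 287 of these control reads and was lower, at 184 reads (voom log2 -0.59, adjusted p = 0.0198), and without it the sums were 61, 80 and 59 against 230, 232 and 232 reads. Adaptor and Fc receptor genes that NK cells share with myeloid cells moved both ways. *Fcgr3* fell from 70.3 ± 0.659 to 31.3 ± 2.86 FPKM (log2 -1.15, limma adjusted p = 4.0e-05) and *Tyrobp* from 241 ± 2.75 to 137 ± 10.9 FPKM (log2 -0.81, limma adjusted p = 1.0e-04), while *Hcst*, the gene of the adaptor that NKG2D signals through, rose from 20.6 ± 2.28 to 26.2 ± 1.46 FPKM (log2 0.34, limma adjusted p = 0.018).

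Among 18 transcription factors of T and NK cell fate, 4 were higher and 4 lower, not far from the shares of all genes (17.8% and 14.8%). *Id2*, which innate lymphoid and NK cells require, rose from 3.27 ± 0.540 to 9.17 ± 0.530 FPKM (log2 1.26, limma adjusted p = 1.8e-04), and *Ets1* rose by 0.41 on the log2 scale (limma adjusted p = 0.00958). *Zeb2* fell by 0.76 and *Nfil3* by 0.70 on the log2 scale (both limma adjusted p = 1.1e-04). *Runx3*, the most abundant of the list, was at 12.1 ± 0.440 against 10.7 ± 0.353 FPKM (log2 -0.16, limma adjusted p = 0.0241, lost in 5 of 17 alternatives). Of 13 effector cytokine and death ligand genes, 1 was higher (*Ltb*, log2 0.33, limma adjusted p = 0.00376) and 2 were lower. Those 2, *Ccl4* (log2 -1.14, limma adjusted p = 2.3e-04) and *Ccl3* (log2 -0.63, limma adjusted p = 7.1e-05), encode chemokines that cytotoxic cells release with CCL5 and that myeloid cells also make, so *Ccl5* and these 2 moved in opposite directions. *Ifng*, the gene of interferon gamma, held 5 reads in control libraries and 12 in *Myh9*-deficient libraries.

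Genes of other cell types that a marrow sample can hold were counted in the same voom fit, where 17.8% of all genes were called higher and 14.8% lower. The part of these cell types in the results above was not tested. Of 14 neutrophil and monocyte genes, 13 were lower and none higher, and the list summed to 11126 to 11157 FPKM in control LSKs and 6237 to 6337 FPKM in *Myh9*-deficient libraries. Of 15 erythroid genes, 13 were called higher and none lower, with sums of 680 to 683 against 1156 to 1196 FPKM. *Slc4a1* was not called (13 against 5 reads), and the alpha globin gene *Hba-a2* had too few reads to be tested (8 against 1, with no overlap of the groups). Of 14 mast cell and basophil genes, many of them granule proteases, 9 were tested, and 7 were higher and none lower (sums of 143 to 155 against 206 to 215 FPKM). Of the 7, *Tpsb2* held no control read and was tested through 17 *Myh9*-deficient reads alone. *Cma1* went from 22 to 281 reads (voom log2 3.71) and *Prss34* from 397 to 1813 reads (voom log2 2.24). *Mcpt1*, *Tpsab1* and *Mrgprb1* had no read in any library. For plasma cells 3 of 9 genes were higher and 3 lower (129 to 130 against 146 to 152 FPKM), with *Jchain* from 30.4 ± 0.347 to 64.0 ± 3.63 FPKM. For plasmacytoid dendritic cells 10 of 11 genes were tested, and 2 were higher and 2 lower, near the shares of all genes (323 to 333 against 261 to 266 FPKM).

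Of 9 B cell genes, 7 were tested, and 1 was higher and none lower, where 17.8% and 14.8% of all genes were. Most of the list's sum (31.3 to 36.9 against 32.3 to 33.8 FPKM) came from *Cd79b*, a chain of the B cell receptor. It was at 31.1 ± 2.79 against 29.2 ± 1.17 FPKM (limma adjusted p = 0.339). *Pax5* and *Ms4a1* held 0 and 1 reads in control libraries and 9 and 5 in *Myh9*-deficient libraries. Of the 7 genes whose products the lineage antibodies bind, 6 were tested, and 3 were higher and 2 lower (10.5 to 11.3 against 11.8 to 12.8 FPKM). Of the 3, *Cd3e* held no control read and was tested through its *Myh9*-deficient reads alone. Among 27 interferon stimulated genes, included because *Mx1-cre* is induced by interferon, 1 was higher and 16 were lower in *Myh9*-deficient LSKs, with summed levels of 651 to 658 against 536 to 552 FPKM.

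**Figure D5:**
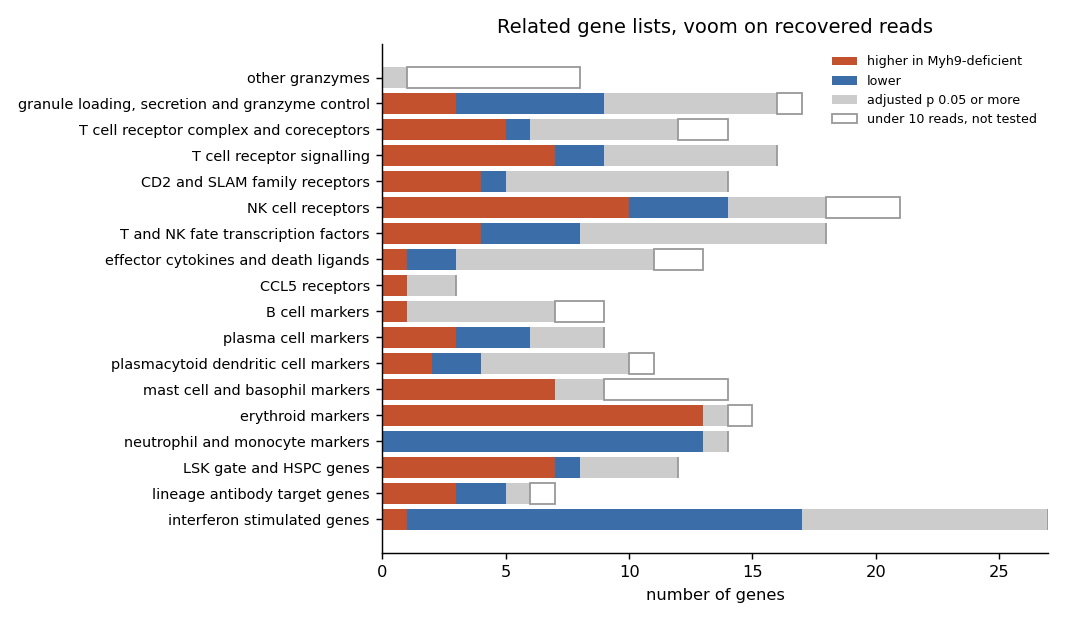
Number of genes in each list called higher (red), called lower (blue), not called (grey) or not tested for having under 10 reads (white), by limma voom on the recovered reads at an adjusted p of 0.05. NK cell receptor genes are called in both directions (10 higher, 4 lower), while erythroid genes are only called higher (13) and neutrophil and monocyte genes only lower (13).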

How the data were processed

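RNA-seq libraries of sorted LSKs (3 control, 3 *Myh9*-deficient) were made with an Illumina TruSeq kit. For library preparation and sequencing, the paper names the company Novogene. The authors deposited FPKM values with gene lengths, 1 column a library. The submitters' processing notes name HISAT2 2.0.5 and mm10. The counting program and its settings are not given in the sources used here, and the kit is not stated to keep strand. No gene of the 10 overlaps another gene of the table.

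The main test was limma 3.58.1 (R 4.3.3, lmFit and eBayes with a trend) on log2(FPKM + 1), two-sided, for genes averaging 1 FPKM or more over the 6 libraries, with Benjamini-Hochberg adjustment over all genes tested. Reads were recovered from FPKM times length and used for depth, ratios and limma voom. Without molecular identifiers, exact intervals and the floor of 3 reads reflect counting error alone. Scripts were tested on simulated data. Where libraries of a group are not known to be separate animals, p-values measure the spread between these libraries. Replicate pairs of a group differed by more than sampling noise.

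The 10 genes and all lists were chosen with earlier results of these data known. Named from each list were at most 2 rises and 2 falls with an adjusted p under 0.05, the most abundant gene and defining markers near 0, and other names were chosen after their values were seen. A gene of the lists is not reported here. Alternatives were another pseudocount, other filters, scalings and moderation, a replicate block, voom, leaving out each library and the study's threshold, and, chosen after seeing the data, voom with at least 10 reads and removal of GC and length trends. Promoters came from RefSeq tables, and sequences for the other 4 genes were not used here.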

Additional observations from a re-analysis of the deposited data

How the results depend on the processing

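Of the results that count calls, 79 values under an alternative stayed within 1.5 times of the reported count and 5 did not. Of the 10 genes, 8 were called higher instead of 3 with no filter on low values, and 8 with voom on genes with at least 10 reads, since both test genes below 1 FPKM. At more than 2-fold with an unadjusted p under 0.05, 0 of the 10 were called lower, and 165 genes of the table were called higher and 81 lower, against 2295 and 2378. *Gzmb*, *Ccl5*, *Trbc2* and *Nkg7* kept their direction and an adjusted p under 0.05 in every fit that tested them, with log2 ranges of 1.37 to 1.72, 1.60 to 1.96, 1.52 to 2.43 and -0.47 to -0.30 over 22 or 23 alternative fits each (*Trbc2* was not tested at a mean of at least 5 FPKM). Leaving out each library gave 1784 to 2043 higher and 1758 to 2065 lower calls over all genes. In voom without each library, *Gzma*, *Cd2*, *Cd3d*, *Cd3g* and *Trac* kept an adjusted p under 0.05 in 6 of 6 fits, and *Prf1* in 1 of 6 (adjusted p 0.0247 without *Myh9*-deficient replicate 2 to 0.334 without *Myh9*-deficient replicate 1). With a replicate block, 2063 genes were higher and 2044 lower, and none of the 4 calls among the 10 genes changed. Libraries of the same number did not deviate together (correlations -0.0046, -0.011 and -0.026). With 3 libraries a group, this cannot exclude that the numbers pair them. Of 252 counts of calls in the related lists under an alternative, 65 moved by over 1.5 times, and among their genes the calls of *Ptprc*, *Nfatc1*, *Tcrg-C4*, *Ctsl*, *Lck* and *Runx3* were lost in 5 or more alternatives each, and the cause was not tested. The depth limits *Prf1*, *Cd2*, *Trac*, *Cd3d* and *Cd3g*, which rest on 1 to 14 control reads.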

Other observations

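T cell receptor genes are completed by joining V, D and J segments, and reads on the unjoined gene names of the table were summed by locus (control against *Myh9*-deficient libraries). Beta V segments held the most reads, 203, 159 and 187 against 136, 153 and 151, and 17 of 35 had any read. Alpha V segments held 25, 33 and 25 against 55, 45 and 36 reads, with 25 of 128 detected, and alpha J segments held 0 against 2 reads in all. Delta V segments held no read in control libraries and 10, 10 and 9 reads in *Myh9*-deficient libraries, most of them on *Trdv2-2* (8, 5 and 8). Gamma V segments held 3, 1 and 0 against 11, 8 and 12 reads, and gamma J segments 7, 9 and 3 against 1, 4 and 11. The summed alpha, delta and gamma V segments were therefore higher in all *Myh9*-deficient libraries and the summed beta V segments lower in all of them. The lower beta sum lay in *Trbv13-2* (146, 99 and 123 against 74, 100 and 100 reads) and *Trbv12-2* (31, 40 and 36 against 29, 20 and 13), and the other beta V segments with a read summed to 26, 20 and 28 against 33, 33 and 38 reads. By FPKM, 3 beta V segments were higher with no overlap of the groups (*Trbv17*, *Trbv29* and *Trbv13-1*, with 3, 0 and 0 control reads) and 2 were lower. No test was run on these sums, and reads of near-identical segments cannot be assigned with certainty.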
